A study of Mus musculus with 163 samples.

Results

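Kinesins and dyneins are the motor proteins that walk along microtubules. The set described here comprised 56 of the 21950 genes of a single-oocyte transcriptome study in mice, chosen by their symbols as those that start with Kif and a digit, Dync, Dynl or Dnah. Of these, 31 were kinesins and 25 were dynein subunits, and 1 pseudogene row was left out. The rule used names alone and no measured value, but it was chosen with earlier results of these data known.

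Most kinesins carry cargo or push microtubules towards the plus end, and cytoplasmic dynein-1 moves towards the minus end. Dynein-1 is built from heavy, intermediate, light intermediate and light chains and works with its cofactor dynactin. Dynein-2 returns material from the tip of cilia, and the Dnah genes encode heavy chains of the dynein arms that make cilia and sperm tails beat. In oocytes, motors are known for organelle transport during growth and for building a spindle without centrosomes and extruding a polar body in meiosis, for which transcripts are stored ahead of time.

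The study followed mouse oocytes through an in vitro culture that leads from stem cells to fully grown oocytes, and each library held 1 oocyte freed of follicle cells and zona pellucida. Growing oocytes (GROs) and fully grown oocytes (FGOs) were collected. iPSC-derived oocytes (23 GROs and 24 FGOs) came from 1 line of induced pluripotent stem cells, BVSC-iPSC, made from adult tail-tip fibroblasts and carrying the reporter transgenes Blimp1-Venus and Stella-ECFP. These cells became primordial germ cell-like cells and were then aggregated with gonadal somatic cells of Swiss Webster embryos at E12.5 to form reconstituted ovaries, in which some of the host's own germ cells may have remained. Gonad-derived oocytes (24 GROs and 24 FGOs) started as germ cells of E12.5 gonads and were aggregated with all other cells of those gonads, with no removal of germ cells, before a similar ovary culture and a growth culture that was shorter than that of iPSC-derived follicles. The 24 FGOs called 6 dpp were cultured from follicles isolated 6 days post partum and so passed only through the growth culture. All cultured FGOs grew in medium with follicle-stimulating hormone, to which BMP15 and GDF9 were added for the first days only. The 24 in vivo GROs and 20 in vivo FGOs came from ovaries, and the strain of the in vivo and 6 dpp animals is not given in the sources used here. For the gonads behind the gonad-derived oocytes, the methods state no strain apart from the Swiss Webster gonads that gave somatic cells.

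The labels name no animal, embryo or culture behind an oocyte, so each group counted as 1 sample and no test was made. Levels are counts per 1000000 reads (CPM), pooled over the oocytes of a group, and the 95% Poisson intervals given with them cover counting error only. The lowest, median and highest oocyte show how far oocytes of a group spread. For a ratio, 0.5 was added to both pooled values before the log2 of their quotient was taken, and a gene was called higher or lower at 2-fold, a log2 ratio of 1 or -1. CPM is a share of the reads of an oocyte, so CPM alone cannot tell a change in a transcript from a change in the total RNA around it. According to the methods of the study, ERCC spike-in RNA was in the lysis buffer of each oocyte, but it was not used here.

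Libraries held a median of 6.93 M reads (2.17 to 13.7 M), and 3 reads in a whole group corresponded to 0.0181 to 0.0207 CPM. All 12 oocyte markers reached 1 CPM in each GRO group and 11 of 12 did in each FGO group, where Sohlh1 stayed below. Some oocytes stood apart. In the in vivo GROs, oocytes numbered 17 to 24 differed from those numbered 1 to 16 without overlap in 802 of 8849 genes (9.06%), against at most 0.0942% for the sets 1 to 8, 9 to 16 and 17 to 24 of the other groups, a split noticed after the data were seen. Gonad-derived FGO 19, with 6.95 M reads, was the lowest or highest of its group for 21 of 33 motor genes. The 6 dpp FGO 12 had the highest summed granulosa marker level of all groups, 1627 CPM, ahead of 415 CPM in in vivo FGO 19 and 373 CPM in 6 dpp FGO 10. For genes named as called in growth in vivo, the ratio is also given against each of these sets of GROs alone.

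CPM exceeded 1 in at least 3 oocytes for 49 of the 56 motor genes among GROs and 50 among FGOs, beside 13422 and 13582 of all 21950 genes. The 6 that failed in both stages were Dnah1, Kif2b, Kif6, Kif12, Kif17 and Kif19a, so every class but kinesin-9, with Kif6 as its one row, had a measured member. To compare levels of different genes, they are given as CPM per kilobase of the deposited exonic length (RPKM).

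Dynein light chains, kinesins of the central spindle and of chromosome arms, and dynein-1 made up most of the motor transcripts. In in vivo GROs the highest levels were those of Dynll1 (254.9 RPKM), a light chain of the LC8 kind, and Dynlrb1 (229 RPKM), a roadblock light chain. Kif22 (161 RPKM), a chromokinesin that binds chromosome arms, Kif23 (149 RPKM), the kinesin-6 of the central spindle, and Dync1i2 (133 RPKM), an intermediate chain of dynein-1, came next. In in vivo FGOs the order of the same 5 genes had changed. Kif22 (246 RPKM) and Kif23 (243 RPKM) led, ahead of Dynlrb1 (206 RPKM), Dync1i2 (159 RPKM) and Dynll1 (114 RPKM).

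Summed over the class, light chains held 44.6% of the motor RPKM in in vivo GROs and 28.9% in in vivo FGOs. Kinesin-6 (Kif20a, Kif20b and Kif23) held 16.2% and 26.2%, and kinesin-10 (Kif22 alone) held 11.9% and 18.4%. The sum over all motor genes was 1354 RPKM in in vivo GROs and 1338 RPKM in in vivo FGOs. In vivo the change thus lay in the make-up of the set rather than in its sum. The sum was 1395 RPKM in iPSC-derived GROs and 1552 RPKM in iPSC-derived FGOs, and 1314 and 1320 RPKM in gonad-derived ones. In the iPSC-derived oocytes the light chain share was 44.4% in GROs and 33.2% in FGOs, and in the gonad-derived ones 42.6% and 27.2%. Axonemal heavy chains, 10 genes, added 0.537% to 1.63% of the motor RPKM in any group.

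**Figure D1:**
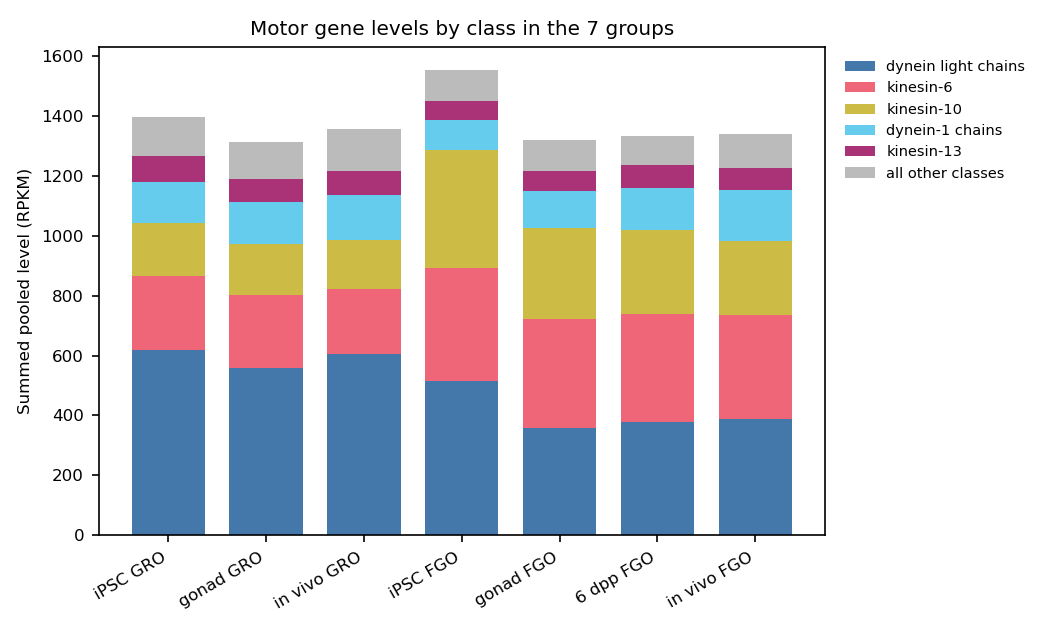
Summed pooled level of motor genes (RPKM) in each of the 7 groups, stacked by class, with all classes outside the 5 largest in grey. For each source with both stages, the light chain segment is shorter in FGOs than in GROs, and the kinesin-6 and kinesin-10 segments are taller.

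The growth comparisons set FGOs against GROs of the same source. In vivo, 4 of 49 motor genes were higher in FGOs, where 10.4% of all genes were, and 7 were lower, where 13.2% of all genes were. In iPSC-derived oocytes 2 were higher (6.69% of all genes) and 8 lower (15.3%), and in gonad-derived oocytes 2 were higher (5.82%) and 6 lower (9.98%). These shares lie near those of all genes. The median log2 ratio of the motor genes was -0.07 in vivo, -0.19 for iPSC-derived and -0.16 for gonad-derived oocytes, and over all genes it was -0.11, -0.11 and -0.05. The summed level of 12 granulosa markers also differed between stages, from 19.3 to 91.6 CPM per oocyte in in vivo GROs and 93.2 to 415 CPM in in vivo FGOs, and its part in these results was not tested. In the cultured groups that sum ran from 20.5 to 104 CPM in iPSC-derived GROs, 28.4 to 103 CPM in gonad-derived GROs, 52.7 to 117 CPM in iPSC-derived FGOs and 86.5 to 157 CPM in gonad-derived FGOs. Cumulus markers summed to at most 3.94 CPM in any oocyte of these 6 groups. The 12 oocyte markers were lower in sum in FGOs, at 41638 to 60627 CPM in iPSC-derived GROs and 20343 to 32944 CPM in iPSC-derived FGOs, and at 44089 to 60261 and 22840 to 37558 CPM in gonad-derived ones, without overlap. In vivo they ran from 45921 to 66509 CPM in GROs and from 30532 to 46816 CPM in FGOs, and their part in the growth ratios was not tested.

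Subunits of dynein-1 differed between the stages in opposite directions. Dync1h1 (chr12:110601395-110666944, GRCm38.p6), the heavy chain that holds the motor domain, was at 41.7 CPM (40.7 to 42.7) in in vivo GROs and 12.7 CPM (12.1 to 13.3) in in vivo FGOs. Over oocytes it ran from 21.9 through a median of 35.5 to 89.5 CPM in GROs and from 3.56 through 10.3 to 26.7 CPM in FGOs. Of the 20 FGOs, 17 lay below every GRO, and the log2 ratio was -1.68, with -1.27 against GROs 1 to 16 alone and -2.26 against GROs 17 to 24 alone. In iPSC-derived oocytes the same gene ran from 15.9 through 24.9 to 29.8 CPM in GROs and from 0.300 through 3.66 to 11.3 CPM in FGOs. The stages did not overlap there, and the pooled values of 23.7 (22.9 to 24.4) and 3.84 CPM (3.55 to 4.15) gave a log2 ratio of -2.48, or 5.57-fold. In gonad-derived oocytes Dync1h1 ran from 11.1 through 21.3 to 29.8 CPM in GROs and from 1.504 through 5.10 to 12.6 CPM in FGOs, with a log2 ratio of -1.76. The heavy chain was therefore lower in FGOs of every source followed through growth. Dync1h1 has an exonic length of 17.5 kb. For all genes of at least 10 kb the median growth ratios were -0.22 in vivo, -0.06 for iPSC-derived and 0.12 for gonad-derived oocytes. Over genes of any length they were -0.11, -0.11 and -0.05.

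Dync1i1 (chr6:5725600-6028039), an intermediate chain that joins cargo adaptors to the motor, lay the other way. It ran from 0 through 1.99 to 11.3 CPM in in vivo GROs and from 4.25 through 13.5 to 30.7 CPM in in vivo FGOs. Pooled levels were 2.49 CPM (2.25 to 2.75) and 14.3 CPM (13.7 to 15.0), a log2 ratio of 2.31 or 4.96-fold. Of the FGOs, 13 lay above every GRO, so the stages overlapped. Against GROs 1 to 16 and 17 to 24 taken alone the ratio was 2.36 and 2.22. It was 1.23 in gonad-derived oocytes, where pooled levels were 4.98 and 12.4 CPM, and 0.71, short of 2-fold, in iPSC-derived oocytes, where they were 6.54 and 11.1 CPM. The other intermediate chain, Dync1i2, was at 91.9 to 159 RPKM over the groups, where Dync1i1 was at 0.726 to 4.18 RPKM, and its growth ratios of 0.25, -0.37 and -0.17 stayed within 2-fold.

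Dync1li1 (chr9:114688831-114723788), a light intermediate chain, followed the heavy chain. It ran from 17.8 through 25.9 to 36.6 CPM in in vivo GROs and from 4.19 through 9.72 to 21.5 CPM in in vivo FGOs, with a log2 ratio of -1.19 (-1.25 against GROs 1 to 16 alone and -1.06 against 17 to 24 alone). The ratio was -1.85 for iPSC-derived and -1.02 for gonad-derived oocytes. The last was at the 2-fold line, at -0.97 without gonad-derived FGO 14, at -0.99 with TMM scaling and at -0.93 with a pseudocount of 2. Its relative Dync1li2 was at 12.3 to 16.9 CPM in all groups and within 2-fold in the 3 growth comparisons. Across the 20 in vivo FGOs, Dync1h1 and Dync1li1 varied together (Pearson r = 0.89, Spearman rho = 0.89, and r = 0.92 without the 2 oocytes farthest from the median). These oocytes share a stage, a source and possibly animals, and 11 of 595 pairs of motor genes reached an r of 0.8 or -0.8 in them. The pair of Dync1h1 and Dync1li1 had the highest r of the 595, and the share of all gene pairs past 0.8 is not given here. Of the 11 pairs, 7 were positive, and Dynlt3 was in 2 of them, with Dync1li1 (r = 0.87) and with Dync1h1 (r = 0.84). The other 4 were negative, and Dync1li1 was in 2 of these, with the light chain Dynlrb1 (r = -0.81) and with Kif22 (r = -0.83).

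Among light chains, Dynll1, Dynll2 and Dynlt3 were lower in in vivo FGOs. Dynll1 (chr5:115297110-115300990), which dimerizes and binds many partners besides dynein, ran from 372 through 523 to 746 CPM in in vivo GROs and from 152 through 243 to 343 CPM in in vivo FGOs. The stages did not overlap, and the log2 ratio was -1.16, with -1.13 and -1.22 against GROs 1 to 16 and 17 to 24 alone. They did not overlap in gonad-derived oocytes either, with 277 to 562 CPM in GROs, 33.4 to 242 CPM in FGOs and a ratio of -1.24. In iPSC-derived oocytes, with 467 and 290 CPM pooled, the ratio was -0.69 and the stages overlapped. Dynll2 (chr11:87979525-88003817), the second LC8 chain, was at 61.9 CPM in in vivo GROs and 26.7 CPM in in vivo FGOs, a ratio of -1.20 that depended on which GROs were used. Against GROs 1 to 16 alone it was -0.77 and against GROs 17 to 24 alone -1.80, and as a ratio of medians it was -0.92. In culture Dynll2 was within 2-fold, with ratios of 0.38 for iPSC-derived and -0.36 for gonad-derived oocytes.

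Dynlt3 (chrX:9654270-9662983), a light chain of the Tctex kind, was lower in the FGOs of all 3 sources. In vivo it ran from 124 through 197 to 310 CPM in GROs and from 34.3 through 79.7 to 161 CPM in FGOs, with a log2 ratio of -1.15 (-1.27 against GROs 1 to 16 alone and -0.87 against GROs 17 to 24 alone). The ratio was -1.53 for iPSC-derived oocytes, without overlap (155 to 271 against 57.7 to 115 CPM), and -1.18 for gonad-derived ones. Dynlrb1 showed no such difference, with 224 to 305 CPM in all groups.

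**Figure D2:**
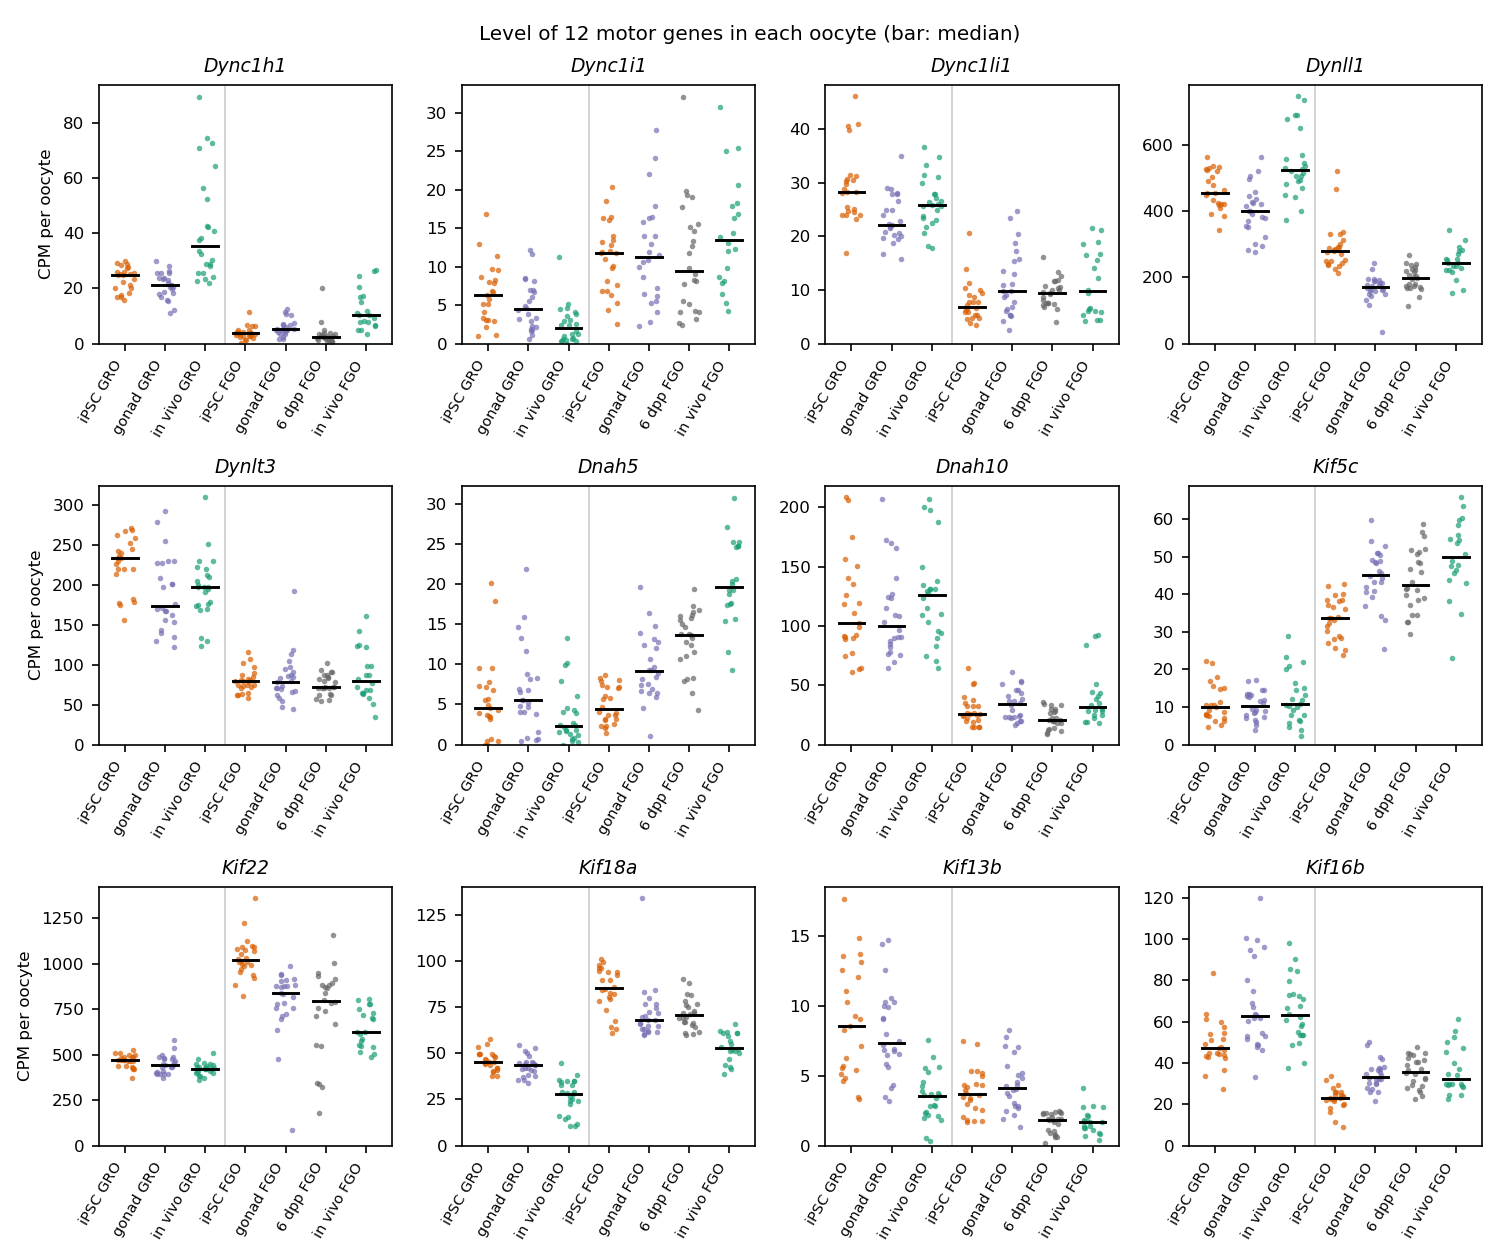
Level of 12 motor genes in each oocyte (CPM, linear axes that start at 0) for the 7 groups, with GROs left and FGOs right of the grey line and a black bar at the median. Dync1h1 medians lie at 21.3 to 35.5 CPM in the GRO groups and 2.35 to 10.3 CPM in the FGO groups, and those of Kif5c at 9.96 to 10.7 CPM and 33.7 to 49.8 CPM.

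Kif5c (chr2:49619286-49774778), a heavy chain of kinesin-1, the motor of long-range plus-end transport, was the one motor gene called higher in FGOs of all 3 sources. It ran from 2.24 through 10.7 to 28.8 CPM in in vivo GROs and from 23.2 through 49.8 to 65.8 CPM in in vivo FGOs, and 19 of 20 FGOs lay above every GRO. Pooled levels of 12.2 CPM (11.7 to 12.7) and 49.8 CPM (48.7 to 51.0) gave a log2 ratio of 1.99, with 2.16 against GROs 1 to 16 alone and 1.70 against 17 to 24 alone. In gonad-derived oocytes it ran from 3.80 through 10.4 to 17.2 CPM in GROs and from 25.3 through 45.2 to 59.8 CPM in FGOs, without overlap, a ratio of 2.01. The iPSC-derived stages did not overlap either, with 4.64 to 22.2 CPM against 23.9 to 42.7 CPM and a ratio of 1.59. Its ubiquitous counterpart Kif5b was at 31.6 to 42.4 CPM in all 7 groups and within 2-fold in growth. Kif5c was thus below Kif5b in RPKM in each GRO group (1.36 to 1.55 against 4.48 to 5.63) and close to it in the FGO groups (4.27 to 6.33 against 5.09 to 6.00).

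The promoters of Kif5c and Dync1h1 are shown because these genes differed between the stages in opposite directions in every source. RefSeq promoter windows of GRCm38.p6, from 250 bases before to 50 after the start, were at hand for 47 of the 56 motor genes. Both windows hold the letters ACTACANNTCCC, printed in capitals, on the strand of the gene. They lie at chr2:49619036-49619335 for Kif5c and at chr12:110601145-110601444 for Dync1h1, both on the plus strand.
Kif5c: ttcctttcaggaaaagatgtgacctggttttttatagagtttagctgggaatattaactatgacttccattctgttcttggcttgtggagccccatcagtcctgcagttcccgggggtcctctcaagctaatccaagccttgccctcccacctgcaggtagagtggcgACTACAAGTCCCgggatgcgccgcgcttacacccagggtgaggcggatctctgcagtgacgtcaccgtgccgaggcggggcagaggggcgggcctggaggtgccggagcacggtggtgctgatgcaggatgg
Dync1h1: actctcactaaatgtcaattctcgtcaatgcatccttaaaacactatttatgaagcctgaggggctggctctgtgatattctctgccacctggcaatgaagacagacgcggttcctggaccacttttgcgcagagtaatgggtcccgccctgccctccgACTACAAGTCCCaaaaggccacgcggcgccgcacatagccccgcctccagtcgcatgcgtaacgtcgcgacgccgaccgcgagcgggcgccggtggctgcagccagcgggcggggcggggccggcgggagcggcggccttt
Searched on both strands, ACTACANNTCCC was found for 4 of 47 motor genes, Dync1h1, Dync1i2, Kif3c and Kif5c, and in 595 of all 32851 promoters (1.81%). The 47 motor genes have 51 promoter windows, so the counts of motor genes are per gene and the shares of all are per promoter. The letters TGACGTCA, the cyclic AMP response element, were in the windows of Dnah6, Kif17, Kif18a and Kif5c and in 1.79% of all. CAGGTG, an E-box, was found for 11 of 47 genes (23.4%) and in 20.2% of all promoters, and GTTNCCNNGGNAAC, an X-box, for 0 of 47 genes and in 0.451% of all promoters. No match of these motifs overlapped another in the 2 printed windows. The motifs were picked after the windows had been read, and genes with the same letters did not share a direction.

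Kinesins of the spindle and of cytokinesis went both ways in growth. Of 10 such genes measured, a grouping made with their values known, 5 (Kif18a, Kif20a, Kif20b, Kif22 and Kif23) had log2 ratios above 0 in the 3 growth comparisons, 3 (Kif2c, Kif11 and Kif15) had ratios below 0 in all 3, and Kif14 and Kif18b differed in sign between sources. Of all genes, 43.8% were above 0 in vivo, 43.4% in iPSC-derived and 46.7% in gonad-derived growth. These shares are for each comparison taken alone. The share of all genes with the same sign in all 3 is not given here, so the counts of 5 and 3 have no matching share beside them. Kif22 (chr7:127027729-127042467) ran from 370 through 471 to 526 CPM in iPSC-derived GROs and from 823 through 1021 to 1362 CPM in iPSC-derived FGOs, without overlap, and the log2 ratio was 1.15. In vivo its ratio was 0.61, with 423 and 645 CPM pooled, and in gonad-derived oocytes 0.82, with 449 and 791 CPM. Kif18a (chr2:109280738-109341749), which dampens chromosome movements at plus ends, was just short of 2-fold in vivo (0.99, with 26.7 and 53.4 CPM), and the call depended on the GROs used, at 0.73 against 1 to 16 alone and 1.70 against 17 to 24 alone. It was at 0.87 in iPSC-derived and 0.73 in gonad-derived oocytes, where the stages did not overlap.

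Kif23 (chr9:61917277-61946810) had growth ratios of 0.70 in vivo (0.54 against GROs 1 to 16 alone and 1.09, past 2-fold, against 17 to 24 alone), 0.74 for iPSC-derived and 0.67 for gonad-derived oocytes, and Kif20a and Kif20b, its kinesin-6 relatives, had ratios of 0.24 to 0.63. Kif11, the kinesin-5 that slides spindle microtubules apart, lay lower in FGOs, with ratios of -0.47, -0.61 and -0.48, as did Kif2c, a kinesin-13 that depolymerizes microtubules, with -0.22, -0.45 and -0.13. Kif15, a kinesin-12 of the spindle, had ratios of -0.36, -0.32 and -0.18. Kif14, a kinesin-3 of cytokinesis, had ratios of 0.32, -0.23 and -0.23, and Kif18b, a kinesin-8, had -0.54, 0.24 and 0.05. The in vivo ratios of Kif2c and Kif14 turned their sign with the GROs used, from -0.34 and 0.67 against 1 to 16 alone to 0.06 and -0.21 against 17 to 24 alone. With all GROs none of the 8 genes from Kif23 to Kif18b passed 2-fold in growth.

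Kinesin-3 genes of vesicle transport that were called in growth were lower in FGOs, and for some the call depended on the source or on the in vivo GROs used. Kif16b (chr2:142618340-142901609), which moves early endosomes, was at 49.1 CPM (48.1 to 50.2) in iPSC-derived GROs and 23.1 CPM (22.4 to 23.8) in iPSC-derived FGOs, a log2 ratio of -1.07 that was -0.99 with edgeR's TMM scaling. It was -0.997 in gonad-derived oocytes, just inside the 2-fold line, and -0.79 in vivo. Kif1b (chr4:149176319-149307773), a carrier of mitochondria and synaptic vesicle precursors, was at 6.66 and 2.36 CPM in iPSC-derived oocytes, a ratio of -1.32. Kif13b (chr14:64652492-64809618) was at 8.70 and 3.83 CPM there, a ratio of -1.09. With a pseudocount of 2 these were -0.99 and -0.88, within 2-fold. The ratio of Kif1b was -0.50 in gonad-derived oocytes and -0.95 in vivo, with -0.33 against GROs 1 to 16 alone and -1.71, past 2-fold, against 17 to 24 alone. That of Kif13b was -0.84 in gonad-derived oocytes and -0.82 in vivo. Kif1c, at -0.51 in vivo, was also past 2-fold against GROs 17 to 24 alone (-1.19). Kif13a was called lower in iPSC-derived and gonad-derived FGOs, but its pooled level never exceeded 2.66 CPM in the groups compared. Its ratio of -1.09 in iPSC-derived oocytes was -0.52 with a pseudocount of 2 and -0.83 as a ratio of medians, and that of -1.15 in gonad-derived ones was -0.64 with a pseudocount of 2. Kif26b (chr1:178529125-178932857), of kinesin-11, was lower in in vivo FGOs at -1.07, with 7.22 and 3.18 CPM. It was within 2-fold at -0.69 against GROs 1 to 16 alone, at -0.94 without in vivo GRO 17 (25.5 CPM), at -0.83 with a pseudocount of 2 and at -0.80 as a ratio of medians, and at -1.62 against GROs 17 to 24 alone.

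Kinesin-2, the motor of intraflagellar transport towards the tip of cilia, was led by Kif3a. It ran from 106 through 140 to 183 CPM in in vivo GROs and from 50.6 through 76.8 to 112 CPM in in vivo FGOs, a ratio of -0.82, and Kif3b, its partner, was at 11.1 and 9.80 CPM. The dynein-2 chains of the return path, Dync2h1 and Dync2li1, stayed within 2-fold in the 8 comparisons. Kinesin-4 was present at low levels, with 1.34 to 2.18 RPKM summed over Kif7, Kif21a and Kif27.

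Axonemal dynein heavy chains were detected although oocytes carry no motile cilia, and 2 of them were called in growth at levels above 5 CPM. Dnah5 (chr15:28154854-28472045), a heavy chain of the outer arm, ran from 0 through 2.28 to 13.3 CPM in in vivo GROs and from 9.24 through 19.7 to 30.7 CPM in in vivo FGOs. Of the FGOs, 18 of 20 lay above every GRO, and pooled levels of 3.51 CPM (3.23 to 3.81) and 20.2 CPM (19.5 to 21.0) gave a log2 ratio of 2.37, or 5.17-fold, with 2.51 and 2.12 against GROs 1 to 16 and 17 to 24 alone. In iPSC-derived oocytes the ratio was -0.14, with 5.54 and 4.98 CPM, and in gonad-derived oocytes 0.46, with 6.85 and 9.64 CPM. FGO levels of Dnah5 were ordered from 4.98 CPM in iPSC-derived through 9.64 in gonad-derived and 13.0 in 6 dpp to 20.2 CPM in in vivo oocytes. The ranges of neighbouring groups in that order overlapped, and those of the first and the last did not (1.48 to 8.67 against 9.24 to 30.7 CPM).

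Dnah10 (chr5:124725085-124834308), a heavy chain of an inner arm, was lower in FGOs of all 3 sources. It ran from 64.5 through 126 to 207 CPM in in vivo GROs and from 18.5 through 31.5 to 92.1 CPM in in vivo FGOs, a log2 ratio of -1.61, with -1.68 and -1.46 against GROs 1 to 16 and 17 to 24 alone. The highest FGO values included 83.9 CPM in FGO 7 and 91.7 CPM in FGO 19, and without these oocytes the ratio was -1.82. The ratio was -1.93 for iPSC-derived oocytes and -1.69 for gonad-derived ones, where the stages did not overlap (64.3 to 207 against 16.9 to 61.4 CPM). Dnah6, an inner arm chain that stayed under 5 CPM, was called higher in in vivo FGOs at 1.47 (1.43 and 1.57 against GROs 1 to 16 and 17 to 24 alone, and 0.97 with a pseudocount of 2). Of 8 markers of multiciliated cells, 2 to 4 reached 1 CPM in each group, with 4 in in vivo FGOs. Foxj1, which drives motile cilium genes, was at 0.0602 CPM or less in every group. Ccno, a cyclin also used in oocytes, made most of a summed level of 2011 to 2677 CPM. The count table used an exonic length under 50% of that of the GENCODE transcript compared with it for 8 motor genes, among them Dnah6, Dnah9, Dnah7b, Dync2h1, Kif13a and Kif13b, so their RPKM refer to part of the transcript.

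**Figure D3:**
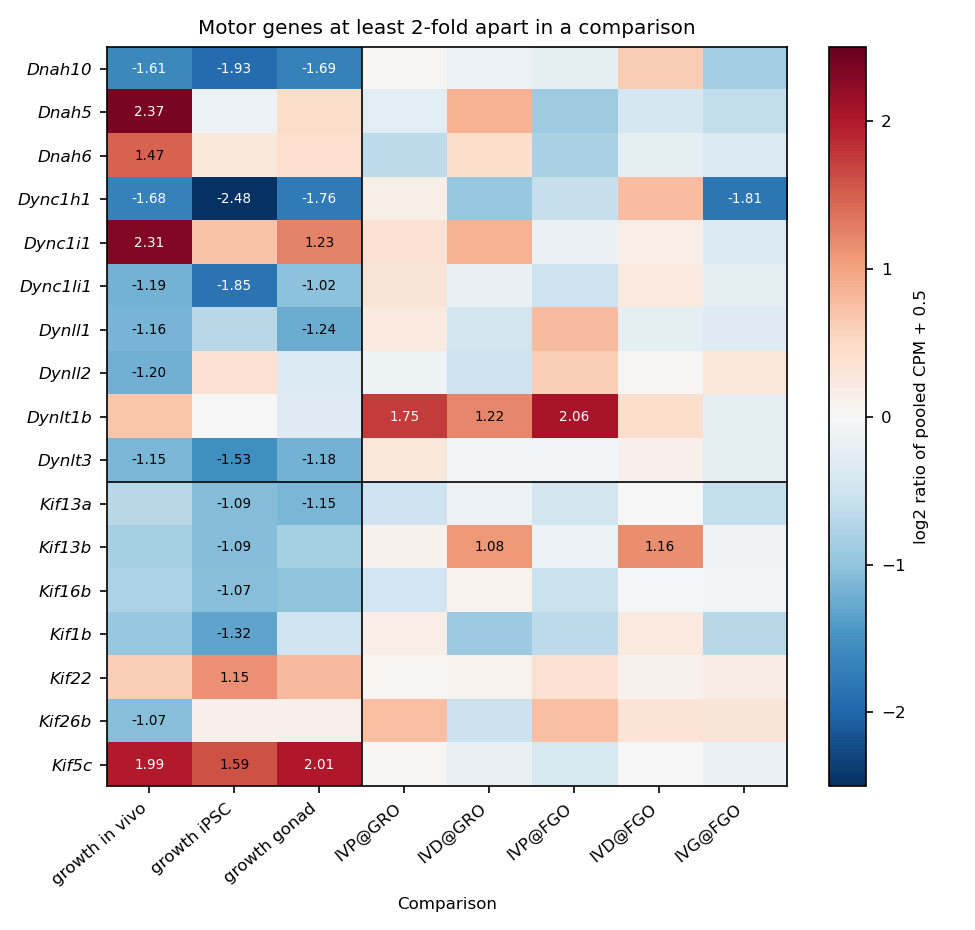
Log2 ratios of pooled CPM + 0.5 (colour) for the motor genes that passed 2-fold in any of the 8 comparisons, with the value printed where the gene was called, dynein genes above and kinesins below the line. The 3 columns at the left are FGO over GRO, where Dync1h1 and Dnah10 are blue and Kif5c is red in all 3, and the columns at the right compare sources at 1 stage.

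Partners outside the symbol rule were read from fixed lists. None of 11 dynactin subunits and none of 19 dynein regulators and adaptors passed 2-fold in growth in vivo, and their median log2 ratios were -0.12 and -0.29, where 10.4% of all genes were higher and 13.2% lower and the median was -0.11. Against GROs 1 to 16 alone the dynactin subunits Actr1b and Dctn1 were lower, and against 17 to 24 alone the regulators Bicd2, Numa1 and Pafah1b1 were. Of 13 kinesin light chains, partners and kinesins with other symbols, 5 were lower and 0 higher beside the same shares, with a median of -0.88. In iPSC-derived growth 3 of 13 were lower, where 15.3% of all genes were (median -0.30), and in gonad-derived growth 2 of 13, where 9.98% were (median -0.26). Kifap3, the subunit that joins kinesin-2 to its cargo, was at 32.7 CPM in in vivo GROs and 6.08 CPM in in vivo FGOs, a ratio of -2.34 (-2.35 against GROs 1 to 16 alone and -2.32 against 17 to 24 alone). Its ratio was -2.997 for iPSC-derived and -2.15 for gonad-derived oocytes, so Kifap3 differed more between the stages than the kinesin-2 motors Kif3a and Kif3b. Klc3, a kinesin-1 light chain, was at 20.8 and 5.16 CPM in vivo (-1.91), opposite to the heavy chain Kif5c, and Kifc1, a minus-end kinesin, at 29.9 and 10.5 CPM (-1.46). Against GROs 1 to 16 and 17 to 24 alone these ratios were -1.97 and -1.80 for Klc3 and -1.50 and -1.40 for Kifc1. In iPSC-derived and gonad-derived growth the ratios were -1.06 and -0.81 for Klc3 and -0.30 and -0.63 for Kifc1. Of these, only that of Klc3 in iPSC-derived oocytes passed 2-fold.

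Among 13 parts of dynein arms and dynein-2 with other names, 3 were lower in in vivo FGOs and 0 higher, where 13.2% of all genes were lower. These were Dnaaf1 (-2.03) and Lrrc6 (-1.31), factors that assemble dynein arms in the cytoplasm, and Wdr34 (-1.43), 1 of the intermediate chains of dynein-2, whose other such chain Wdr60 had a ratio of -0.29. All 3 were lower against either set of in vivo GROs, at -1.77 and -2.44 for Dnaaf1, -1.33 and -1.27 for Lrrc6 and -1.52 and -1.24 for Wdr34 with 1 to 16 and 17 to 24. In iPSC-derived oocytes 5 of 15 were lower (15.3% of all genes), Wdr34 by the most (-2.45), and in gonad-derived oocytes 3 of 13 (9.98% of all genes). Of 11 dynactin subunits, 1 was lower in iPSC-derived growth (15.3% of all genes) and 2 in gonad-derived growth (9.98% of all genes), and 0 were higher. Those called were Actr1b, at -1.26 for iPSC-derived and -1.33 for gonad-derived oocytes, and Dctn6, at -1.26 for gonad-derived ones. None of the dynein regulators and adaptors passed 2-fold in these growth comparisons (17 and 18 measured), with a median of 0.10 in each.

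The remaining comparisons set sources against each other at 1 stage. Those of iPSC-derived against gonad-derived oocytes were set up to read the step from stem cells to primordial germ cell-like cells (in vitro differentiation to germ cells, IVP). These groups also differed in the cells the germ line came from, in the removal of germ cells from the gonadal cells and, for FGOs, in the length of the growth culture, which cannot be told apart from that step. Gonad-derived GROs against in vivo GROs, and gonad-derived FGOs against 6 dpp FGOs, read the step through reconstituted ovaries (in vitro differentiation to oocytes, IVD). The paper states that iPSC-derived and gonad-derived GROs were larger than in vivo GROs. Oocyte size was not used here, and its part in the comparison of GROs and in the growth comparisons was not tested. The 6 dpp FGOs against in vivo FGOs read the growth culture (in vitro growth, IVG). Neighbouring comparisons share a group and are not independent.

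Few motor genes passed 2-fold between sources. IVP@GRO had 1 motor gene of 49 higher, beside 1.98% of all genes, and 0 lower, beside 1.75%. IVD@GRO had 2 higher (4.18%) and 0 lower (2.7%), IVP@FGO had 1 of 50 higher (2.19%) and 0 lower (3.74%), and IVD@FGO had 1 higher (1.58%) and 0 lower (0.95%). IVG@FGO had 0 higher (1.22%) and 1 lower (2.97%). The median ratio of motor genes lay between -0.11 and 0.09 in the comparisons other than IVG@FGO, where it was -0.23 against -0.04 over all genes, and 12 of 50 motor genes had a ratio above 0 there, beside 45.8% of all genes.

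Dync1h1 was the gene lower after growth in culture. It ran from 0.620 through 2.35 to 20.2 CPM in 6 dpp FGOs, against 3.56 through 10.3 to 26.7 CPM in in vivo FGOs, and 17 of the 24 lay below every in vivo FGO. Pooled levels were 3.26 CPM (2.99 to 3.56) and 12.7 CPM, a log2 ratio of -1.81. The highest value among 6 dpp FGOs was that of FGO 12, which also had the most granulosa marker reads, and without single oocytes the ratio moved between -2.11 and -1.71. Theca and stroma markers also differed between these groups, at 62.0 CPM pooled in 6 dpp FGOs (3.43 through 12.4 to 830 CPM, with the highest value in FGO 12 and 315 CPM in FGO 10) and 7.26 CPM in in vivo FGOs (1.79 through 5.71 to 41.1 CPM). Without 6 dpp FGO 12 and in vivo FGOs 7 and 19 the ratio of Dync1h1 was -1.98, and the part of the marker levels in it was not tested otherwise. Oocyte markers summed to 28238 CPM in 6 dpp FGOs (22867 to 33456) and 39979 CPM in in vivo FGOs (30532 to 46816). The iPSC-derived and gonad-derived FGOs were at 3.84 and 5.93 CPM. Without 6 dpp FGO 12 the 6 dpp level was 2.54 CPM, and Dync1h1 then passed 2-fold in IVD@FGO, at 1.08 where it was 0.77 with all oocytes. Across all genes of at least 10 kb of exonic length, which include Dync1h1, the median ratio in this comparison was -0.14 (194 genes), and over the 6 motor genes of that length it was -0.60.

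In GROs, Dync1h1 was at 23.7 CPM in iPSC-derived and 21.3 CPM in gonad-derived oocytes and at 41.7 CPM in vivo, and the ratio of IVD@GRO was -0.95. Taken apart, in vivo GROs 1 to 16 were at 31.3 CPM and 17 to 24 at 62.6 CPM, and the ratio was -0.54 and -1.53. The median ratio of IVD@GRO was -0.31 over the 194 genes of at least 10 kb and -0.03 over all genes. Over the 6 motor genes of that length it was 0.05, and the part of length was not tested.

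Dynlt1b (chr17:6429530-6440500), another light chain of the Tctex kind, was the 1 motor gene called in IVP@GRO and in IVP@FGO. In GROs it ran from 23.1 through 33.5 to 44.3 CPM in iPSC-derived oocytes, from 5.29 through 10.1 to 14.0 CPM in gonad-derived ones and from 1.82 through 3.84 to 6.51 CPM in vivo. The iPSC-derived range did not overlap the others. Pooled levels of 33.5 CPM (32.7 to 34.4), 9.65 CPM (9.17 to 10.2) and 3.84 CPM (3.55 to 4.16) gave ratios of 1.75 in IVP@GRO and 1.22 in IVD@GRO, the latter 0.996 with a pseudocount of 2. In FGOs it ran from 19.8 through 34.4 to 50.8 CPM in iPSC-derived oocytes and from 1.15 through 7.76 to 11.3 CPM in gonad-derived ones, again without overlap. The pooled levels were 33.2 CPM (32.3 to 34.1) and 7.58 CPM (7.16 to 8.02), a ratio of 2.06 or 4.17-fold, and 6 dpp and in vivo FGOs were at 5.45 and 6.49 CPM. Between the stages it differed little in iPSC-derived oocytes, with a log2 ratio of -0.01.

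Dynlt1b is 1 of 4 near-identical copies on chromosome 17, which is why their sequences are shown. Each coding sequence has 339 bases in the GENCODE gene models of GRCm38, and Dynlt1a, Dynlt1c and Dynlt1f differ from Dynlt1b by 1 base. The first 60 coding bases, counted from the A of the start codon, follow with the differing base in capitals.
Dynlt1b: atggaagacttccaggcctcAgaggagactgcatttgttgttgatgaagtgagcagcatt
Dynlt1a: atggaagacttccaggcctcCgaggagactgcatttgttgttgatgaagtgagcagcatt
Dynlt1c: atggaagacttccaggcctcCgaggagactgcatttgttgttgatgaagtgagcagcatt
Dynlt1f: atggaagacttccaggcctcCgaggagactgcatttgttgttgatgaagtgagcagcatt
The substitution is A21C for Dynlt1a, Dynlt1c and Dynlt1f, with the base of Dynlt1b first. Of all stretches of 75 bases, the read length, 82.6% of those in Dynlt1b, 82.2% in Dynlt1f and 65.6% in Dynlt1a occur in another gene, and 43 of the 56 motor genes have none. Reads that fit several copies were not counted as unique, so the levels of these copies rest on the remaining stretches and are uncertain. Dynlt1c has no row used here.

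The other copies did not follow Dynlt1b. Dynlt1a ran from 20.6 through 28.0 to 33.2 CPM in iPSC-derived GROs and from 18.4 through 25.4 to 38.7 CPM in gonad-derived ones, a ratio of 0.07, and in FGOs the ratio was -0.19. Dynlt1f was at 6.90 and 6.63 CPM in these GROs and at 6.19 and 5.89 CPM in the FGOs.

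**Figure D4:**
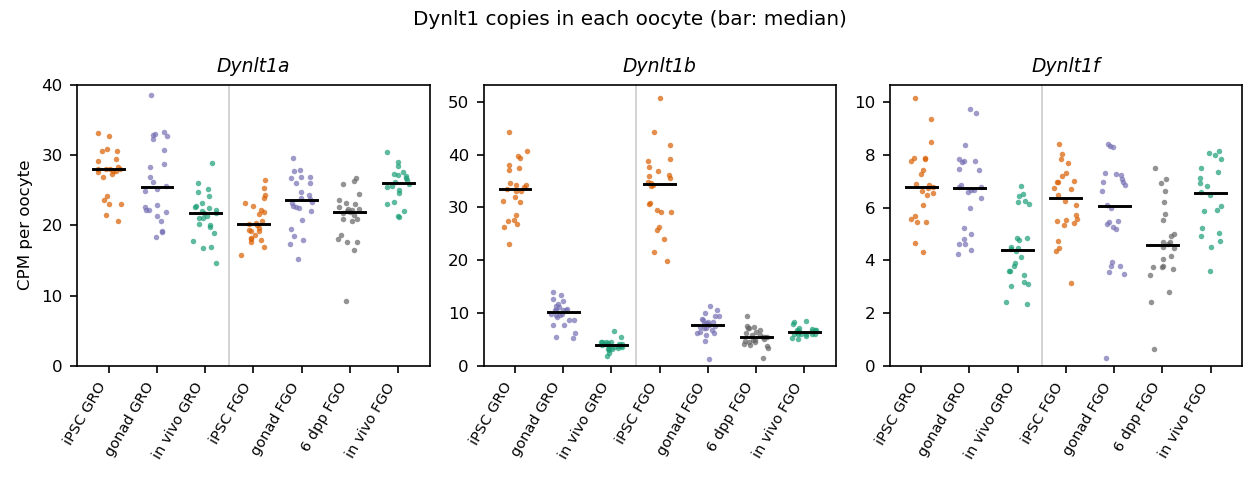
Level of Dynlt1a, Dynlt1b and Dynlt1f in each oocyte (CPM, linear axes that start at 0) for the 7 groups, with a black bar at the median. Dynlt1b medians are 33.5 and 34.4 CPM in the iPSC-derived groups and 3.84 to 10.1 CPM elsewhere, whereas the other copies overlap between sources.

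Kif13b was the other motor gene called between sources. It was at 8.02 CPM (7.59 to 8.48) in gonad-derived GROs and 3.52 CPM (3.24 to 3.82) in in vivo GROs, with ranges of 3.21 to 14.7 and 0.294 to 7.57 CPM and a ratio of 1.08. The ratio was 1.004 against GROs 1 to 16 alone and 1.26 against GROs 17 to 24 alone, and within 2-fold at 0.86 with a pseudocount of 2 and 0.96 as a ratio of medians. In FGOs it was at 4.26 CPM in gonad-derived and 1.64 CPM in 6 dpp oocytes, a ratio of 1.16 at low levels (0.78 with a pseudocount of 2 and 0.98 as a ratio of medians), and 20 of 24 gonad-derived oocytes lay above every 6 dpp one. In iPSC-derived oocytes Kif13b was at 8.70 CPM in GROs and 3.83 CPM in FGOs, near the gonad-derived levels. Pooled over oocytes, both groups that passed through reconstituted ovaries were above the other groups of their stage, with ranges that overlapped.

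Several motor genes also differed within the in vivo GROs. Between oocytes numbered 17 to 24 and those numbered 1 to 16, 4 of 32 motor genes did not overlap, beside 9.06% of all genes. Kif14 ran from 137 through 185 to 213 CPM in the former and from 61.2 through 99.2 to 118 CPM in the latter. Kif2c (211 to 270 against 277 to 493 CPM), Kif20a (138 to 192 against 198 to 264 CPM) and Kif11 (126 to 175 against 177 to 226 CPM) lay the other way. Kif7, a gene of low level outside these 32, did not overlap either. It ran from 2.26 to 6.11 CPM in 17 to 24 and from 0.140 to 1.41 CPM in 1 to 16. Beyond these, Dynll2 was at 94.1 and 45.8 CPM pooled, Kif1b at 19.8 and 7.27 CPM, Kif18a at 16.0 and 32.0 CPM and Kif23 at 293 and 429 CPM, with ranges that overlapped.

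Library sizes overlapped between the sets (5.84 to 7.53 M reads in 17 to 24 and 5.55 to 7.54 M in 1 to 16). Summed oocyte markers (45921 to 63320 and 47713 to 66509 CPM, medians 51993 and 55189) and granulosa markers (19.3 to 91.6 and 32.3 to 66.2 CPM) overlapped too. Multiciliated cell markers ran from 2092 to 2707 CPM in 17 to 24 and from 2194 to 2836 CPM in 1 to 16, with medians of 2354 and 2604 CPM. Theca and stroma markers had a higher median in 17 to 24, at 6.83 CPM (3.00 to 18.2) against 3.43 CPM (1.56 to 8.67) in 1 to 16, with ranges that overlapped. The part of these marker levels in the split was not tested. Tubes came as strips of 8 per the extraction protocol in the labels, and whether strip, animal or day differed is not given. With GROs 1 to 16 alone, growth in vivo had 4 motor genes higher and 5 lower of 48, beside 10.9% and 11.5% of all genes. With 17 to 24 alone it had 6 higher and 9 lower, beside 12.4% and 18.1%. IVD@GRO had 3 higher and 0 lower with 1 to 16 alone, beside 4.49% and 1.45%. With 17 to 24 alone it had 3 higher and 7 lower, beside 5.15% and 9.2%, the lower ones being Dync1h1, Dynll2, Kif1b, Kif1c, Kif7, Kif21a and Kif26b.

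**Figure D5:**
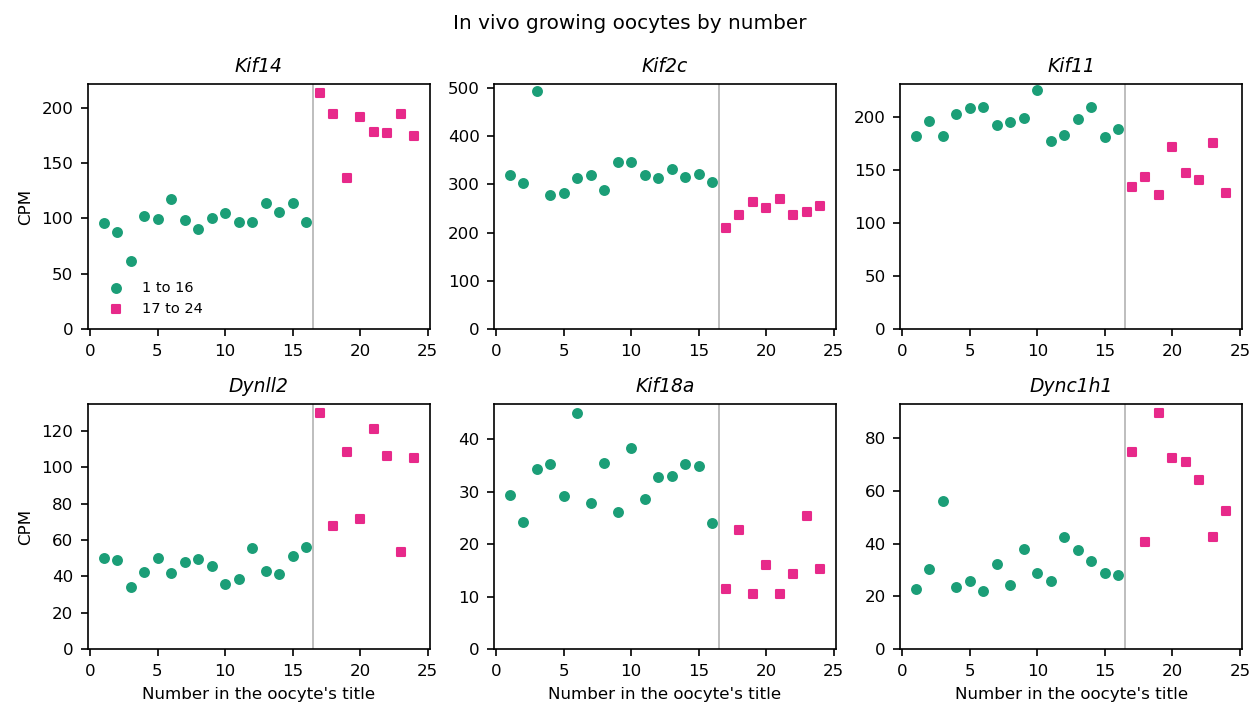
Level of 6 motor genes in the 24 in vivo GROs (CPM, axes from 0) against the number in the oocyte's title, which is a name and not an order. Oocytes 17 to 24 (squares) lie above the rest for Kif14 and below it for Kif2c and Kif11, and Dynll2, Kif18a and Dync1h1 overlap between the sets.

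Gonad-derived FGO 19 departed from its group in both directions. Kif22 was at 87.1 CPM in it against 474 to 987 CPM in the other 23 oocytes, Dynll1 at 33.4 against 117 to 242 CPM, and Dynlrb1 at 28.5 against 199 to 282 CPM. Kif23 was at 1101 against 585 to 722 CPM, Kif18a at 134 against 59.9 to 84.3 CPM and Dynlt3 at 192 against 45.1 to 118 CPM. Kif22 in gonad-derived FGOs thus spread from 87.1 to 987 CPM through this oocyte alone, whereas in 6 dpp FGOs it spread from 178 to 1162 CPM. No gonad-derived growth ratio named above changed its side of the 2-fold line without FGO 19.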

How the data were processed

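RNA of single oocytes was reverse transcribed with oligo-dT and amplified over its full length (Smart-seq2), and tagmented libraries were read as single ends of 75 bases. According to the labels and the methods of the study, the authors aligned reads with STAR to GRCm38 (mm10) joined with ERCC spike-in sequences. They deposited raw read counts per gene with the exonic length. The counts were made with QuasR from uniquely mapped reads in the exons of 1 transcript per gene. Strand is not kept by the kit, so reads of a motor gene and of an antisense partner cannot be told apart. A model on the opposite strand overlaps 25 of the 56 genes. Reads were amplified and carried no molecular identifiers, so they do not count independent molecules and intervals cover counting error only.

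All 163 oocyte columns were used, grouped by the labels, whereas the study selected samples by oocyte size for its expression models. Symbols came from the RefSeq gene table of GRCm38.p6, which matched 21907 of 21950 identifiers. The members, gene lists, 2-fold rule and comparisons were chosen with earlier results of these data known. Counts were summed per group and divided by summed library totals. A gene entered a comparison of sources if 3 or more oocytes of that stage had over 1 CPM, and a growth comparison if 3 or more oocytes of its pair of groups did. Intervals are exact Poisson 95% intervals. The text names every motor gene at least 2-fold apart in a comparison with 5 CPM or more in the higher group, the 5 of highest RPKM in each in vivo stage and examples of classes. Those at least 4-fold apart are given with their ratio and the lowest, median and highest oocyte of both groups.

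The ratio code was tested on simulated data in which 200 genes were changed. Alternatives were TMM factors (edgeR 4.0.16) and size factors (DESeq2 1.42.0) in R 4.3.3, no filter, pseudocounts of 0.1 and 2, ratios of medians, oocytes left out singly, and the 5 oocytes left out that an earlier analysis had found apart (in vivo FGOs 7 and 19, gonad-derived FGOs 5 and 22, 6 dpp FGO 12). The split of in vivo GROs by number was added after seeing the data. Python 3.11.15, numpy 2.4.6, pandas 2.3.3 and scipy 1.17.1 were used.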

Additional observations from a re-analysis of the deposited data

How the results depend on the processing

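No paired analysis was possible because oocyte numbers shared between groups name no common animal or culture and the results come from no test. Of the 35 calls at 2-fold, 22 held under every alternative, 13 were lost in at least 1, and 0 changed sign. Under the 4-fold rule 5 of 35 remained (Dync1i1 and Dnah5 in growth in vivo, Dync1h1 in growth of iPSC-derived oocytes, Kif5c in growth of gonad-derived oocytes and Dynlt1b in IVP@FGO). The count of motor genes called moved by over 1.5 times in 3 comparisons. In IVD@GRO it was 2 as reported, 0 with a pseudocount of 2, 4 with a pseudocount of 0.1 and 10 with in vivo GROs 17 to 24 alone. In IVP@FGO it was 1, and 2 with a pseudocount of 0.1. In IVD@FGO it was 1, and 0 with a pseudocount of 2 or the ratio of medians, 2 with a pseudocount of 0.1 and 2 without the 5 oocytes. Leaving out single oocytes gave 10 to 13 in growth in vivo (11 as reported), 10 to 10 in iPSC-derived and 7 to 9 in gonad-derived growth (10 and 8), 2 to 3 in IVD@GRO, 1 to 2 in IVD@FGO, with 2 (Dync1h1 added) only without 6 dpp FGO 12, and 1 to 1 in the rest. The cause was not tested. Scaling by TMM or DESeq2 moved the median of all genes by under 0.1 in the 8 comparisons and cost the calls of Kif16b in iPSC-derived and Dync1li1 in gonad-derived growth. Without replication of animals or cultures, no spread between conditions is known, and calls near 2-fold or of genes of low level move with the pseudocount. With a pseudocount of 2, Kif26b and Dnah6 in growth in vivo, Kif1b, Kif13a and Kif13b in iPSC-derived growth, Dync1li1 and Kif13a in gonad-derived growth, Kif13b and Dynlt1b in IVD@GRO and Kif13b in IVD@FGO were within 2-fold.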
